A study of Mus musculus with 4 samples.

Results

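Interferon-stimulated genes are the genes that cells switch on when an interferon binds its receptor, and 35 of them were followed here among the 27998 genes of the deposited matrices. They were chosen by name: 24 were classed as type I-type (Ifit1, Ifit2, Ifit3, Ifit3b, Isg15, Irf7, Irf9, Stat2, Oasl1, Oasl2, Oas1a, Oas2, Rsad2, Usp18, Ifi44, Ifi35, Ifi27l2a, Ifitm3, Bst2, Zbp1, Xaf1, Parp14, Trim30a and Rtp4) and 11 as gamma-type (Irf1, Iigp1, Igtp, Irgm1, Irgm2, Gbp2, Gbp3, Gbp5, Gbp7, Cxcl9 and Cxcl10). All 35 names were found. Male C57BL/6 mice of 6 to 8 weeks of age were given glyoxylate, a precursor of oxalate, by injection into the peritoneum, and kidney cells were taken after 0, 1, 4 and 7 days (D0, D1, D4 and D7) to model calcium oxalate nephropathy. The kidneys were minced and digested with trypsin and DNase, and 1 droplet library (10x Genomics, single cell 3′ chemistry) was sequenced per day. How many mice each library pooled, and what the D0 mice received, is not given in the sources used here. With 1 library per day no test between days was possible, and every interval below is a 95% interval for counting error only.

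Type I interferons (the alpha and beta families) signal through IFNAR1 and IFNAR2 to a complex that contains STAT2 and IRF9 and binds a DNA element called the ISRE. Interferon gamma, made mainly by T cells and natural killer cells, signals through IFNGR1 and IFNGR2, acts at the GAS element and induces IRF1. Many of the genes answer to both kinds of interferon, so the labels type I-type and gamma-type describe the stronger usual inducer.

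Promoter windows of 300 bases, from 250 bases before to 50 bases after the annotated start, were available for 28 of the 35 genes (RefSeq, GRCm38.p6). The 7 genes without one were Iigp1, Oas2, Usp18, Ifi27l2a, Zbp1, Parp14 and Rtp4. Each window was searched on both strands for an ISRE core, 2 copies of GAAA with any 2 bases between them, and for a GAS core, TTCNNNGAA. The ISRE core was present for 10 of 18 type I-type genes and 8 of 10 gamma-type genes, against 3.99% of the 27025 genes with a window. The GAS core was present for 5 of 18 type I-type genes and 5 of 10 gamma-type genes, against 9.55% of all genes. Matches of the 2 cores overlapped each other in Ifitm3 and Bst2. The windows of 6 genes on which the results below turn are printed 5′ to 3′ on the strand of the gene, with matches to either core in capitals. The capitals mark ISRE cores in Isg15, Rsad2, Gbp2 and Cxcl10 and a GAS core in Irf1, and neither core was found in the Cxcl9 window. Irf1 has another window (chr11:53770223-53770522, plus strand), not printed, in which neither core was found. A match describes the letters and is not evidence of binding.
Isg15, chr4:156200769-156201068, minus strand: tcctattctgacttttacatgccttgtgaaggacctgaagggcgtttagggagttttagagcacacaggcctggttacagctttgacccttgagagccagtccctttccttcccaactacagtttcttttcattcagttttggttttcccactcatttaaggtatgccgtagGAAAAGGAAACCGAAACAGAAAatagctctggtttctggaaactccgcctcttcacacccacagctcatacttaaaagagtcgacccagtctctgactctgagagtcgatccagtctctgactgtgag
Rsad2, chr12:26456403-26456702, minus strand: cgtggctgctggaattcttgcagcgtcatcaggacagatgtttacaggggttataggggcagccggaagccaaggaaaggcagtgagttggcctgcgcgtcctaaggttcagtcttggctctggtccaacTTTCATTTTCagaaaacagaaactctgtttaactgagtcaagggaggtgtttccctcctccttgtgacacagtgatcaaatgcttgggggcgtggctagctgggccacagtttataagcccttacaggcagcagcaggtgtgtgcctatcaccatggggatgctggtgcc
Gbp2, chr3:142620413-142620712, plus strand: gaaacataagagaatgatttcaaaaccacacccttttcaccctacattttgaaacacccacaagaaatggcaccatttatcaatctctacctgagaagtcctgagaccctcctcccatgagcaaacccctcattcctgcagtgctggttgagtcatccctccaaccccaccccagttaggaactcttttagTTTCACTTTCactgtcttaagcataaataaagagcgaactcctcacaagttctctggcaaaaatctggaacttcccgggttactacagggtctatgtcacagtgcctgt
Cxcl10, chr5:92348840-92349139, minus strand: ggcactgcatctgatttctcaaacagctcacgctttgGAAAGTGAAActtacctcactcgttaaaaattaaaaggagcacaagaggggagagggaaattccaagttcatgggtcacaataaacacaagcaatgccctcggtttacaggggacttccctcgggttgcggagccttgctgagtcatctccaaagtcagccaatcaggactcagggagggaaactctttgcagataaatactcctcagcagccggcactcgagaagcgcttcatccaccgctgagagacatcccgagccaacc
Irf1, chr11:53769764-53770063, plus strand: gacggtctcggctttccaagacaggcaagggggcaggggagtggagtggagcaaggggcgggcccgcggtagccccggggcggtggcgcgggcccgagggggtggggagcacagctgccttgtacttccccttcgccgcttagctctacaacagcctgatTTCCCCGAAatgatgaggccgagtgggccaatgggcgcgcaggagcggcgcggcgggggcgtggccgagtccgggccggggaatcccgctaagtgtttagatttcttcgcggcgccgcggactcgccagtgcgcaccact
Cxcl9, chr5:92328030-92328329, minus strand: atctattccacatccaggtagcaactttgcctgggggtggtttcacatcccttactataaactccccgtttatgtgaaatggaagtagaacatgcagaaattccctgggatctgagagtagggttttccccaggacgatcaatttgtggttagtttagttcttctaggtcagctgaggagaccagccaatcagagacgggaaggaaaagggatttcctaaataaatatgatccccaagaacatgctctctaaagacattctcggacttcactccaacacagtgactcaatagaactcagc

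Several of the genes lie in clusters (GENCODE M21, GRCm38). Ifit2, Ifit3, Ifit3b and Ifit1 lie on chromosome 19 between 34550694 and 34650009, and Gbp5, Gbp7, Gbp3 and Gbp2 on chromosome 3 between 142493978 and 142638008. Cxcl9 (chr5:92321347-92328079) and Cxcl10 (chr5:92346638-92348889) are neighbours on the minus strand of chromosome 5. Igtp and Irgm2 have annotated exons that overlap on the plus strand of chromosome 11, and the last 500 bases of neither gene share a 50-base word with another gene.

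The libraries held 16426, 12730, 16427 and 15087 barcodes at D0, D1, D4 and D7, with 85009491 to 99337001 UMIs (unique molecular identifiers, which count captured transcripts) each. Any pair of libraries shared 50 to 81 barcode sequences. The lowest UMI count of a barcode was 500 at D0 and D1, 2919 at D4 and 2773 at D7, so the cells of the later libraries had a higher floor. Cells were picked by marker UMIs after leaving out barcodes with more than 50% mitochondrial UMIs. The proximal tubule gate (at least 2 UMIs of Lrp2 and Slc34a1, no Ptprc) held 11751, 7635, 15040 and 12625 cells, and all 12 tubule markers not used by the gate were detected there on every day. The macrophage gate (at least 5 UMIs of C1qa, C1qb and C1qc) held 158, 177, 127 and 194 cells, the Lyz2-high gate (at least 5 Lyz2 UMIs) 176, 341, 165 and 435 cells, and the T cell gate (at least 2 UMIs of Cd3d, Cd3e and Cd3g) 280, 485, 201 and 163 cells. Levels are given as CPM, the usual depth-scaled UMI count, taken over all UMIs of all cells of a gate in a library.

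These 3 immune gates also held tubule RNA. The 12 tubule markers were at 45.7%, 34.3%, 63.9% and 36.4% of their proximal tubule level in the macrophage gate at D0, D1, D4 and D7, at 34.9%, 26.6%, 49.6% and 32.6% in the Lyz2-high gate and at 38.0%, 29.3%, 68.7% and 65.8% in the T cell gate. At least 2 UMIs of Lrp2 and Slc34a1 were present in 32.3%, 22.03%, 84.3% and 54.6% of macrophage-gate cells at D0, D1, D4 and D7. The shares were 33.5%, 27.9%, 65.5% and 41.8% in the Lyz2-high gate and 29.6%, 21.7%, 82.1% and 74.2% in the T cell gate. Tubule RNA adds to the denominator of a CPM, so the summed levels and D7 ratios of the immune gates were also taken in cells with under 2 such UMIs, called the restricted cells of these gates, which numbered 107, 138, 20 and 88 in the macrophage gate, 117, 246, 57 and 253 in the Lyz2-high gate and 197, 380, 36 and 42 in the T cell gate. In these restricted cells the level of the 12 tubule markers was 5.79% to 12.5% of the proximal tubule level in the macrophage and Lyz2-high gates and 8.95% to 20.4% in the T cell gate.

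Over all cells of the proximal tubule gate the summed interferon-stimulated genes were low on every day and higher after glyoxylate, with the type I-type sum highest at D7. The 24 type I-type genes summed to 36.7, 56.7, 55.8 and 73.9 CPM at D0, D1, D4 and D7. At least 1 UMI of them was present in 15.4%, 26.1%, 17.1% and 23.8% of the gate's cells. After every cell was thinned to 2000 UMIs, which left out 1937 D0 and 1266 D1 cells as too shallow, the shares were 5.88%, 8.86%, 7.81% and 9.40%, and the D0 share was again the lowest. The D7 level was 2.01 times the D0 level. The 11 gamma-type genes summed to 41.8, 62.1, 44.2 and 58.0 CPM, and their D7 level was 1.39 times the D0 level. The gamma-type sum was highest at D1 and close to its D0 level at D4.

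Markers of several other cell types were also higher at D7 than at D0 in the same gate, though not each on every day. Others were lower at D7, among them the B cell markers, at 7.95 CPM at D0 and 5.03 CPM at D7. The 10 macrophage markers summed to 17.1, 41.9, 21.7 and 37.3 CPM in the proximal tubule gate, the 8 monocyte markers to 22.3, 34.9, 34.0 and 49.1 CPM and the 8 neutrophil markers to 15.1, 11.02, 19.6 and 26.7 CPM. In proximal tubule cells with no UMI of the 41 macrophage, monocyte, neutrophil, T cell and NK (natural killer) markers found in the files, the restricted cells of this gate, the D7 ratio was 1.61 for the type I-type sum and 1.24 for the gamma-type sum. Both ratios were smaller in these cells and still above 1. The type I-type sum of these cells was 29.3, 48.3, 38.3 and 47.2 CPM at D0, D1, D4 and D7, so it was highest at D1. Their gamma-type sum was 38.4, 57.2, 37.9 and 47.7 CPM, so it was not above D0 at D4. Cxcl10 alone gave 178 of the 2150 gamma-type UMIs of these cells at D0 and 558 of 2388 at D7. The 8 dendritic cell markers, at 76.2, 83.8, 148 and 214 CPM, and 13 genes induced by tissue dissociation, at 1652, 1445, 3134 and 3118 CPM, were also higher at D4 and D7. The part of immune RNA or of dissociation in the full-gate values was not tested.

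**Figure D1:**
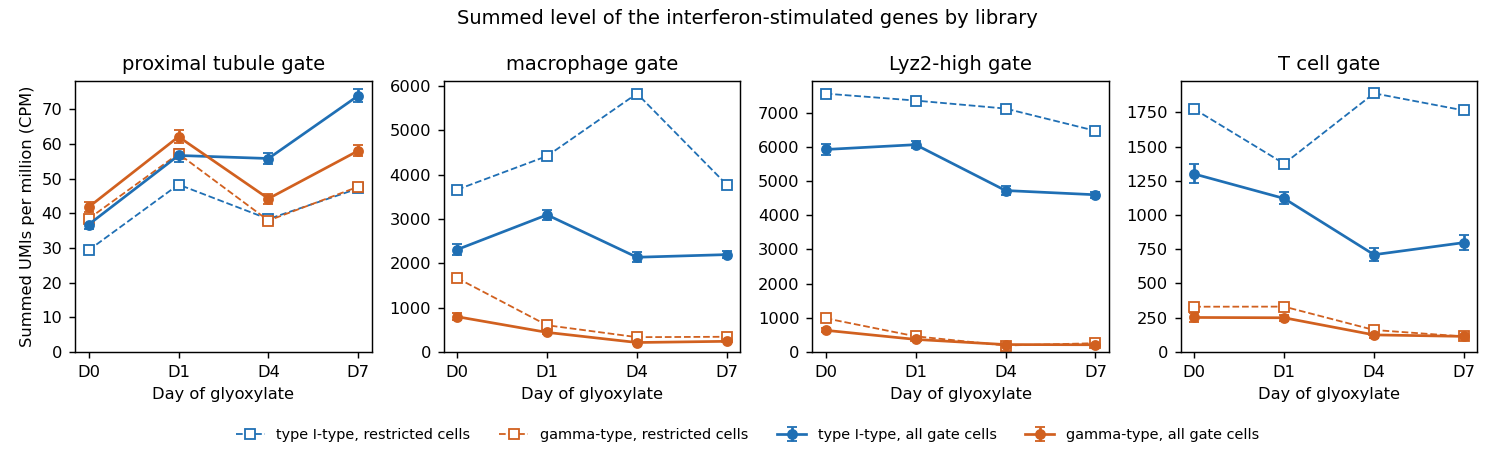
Summed CPM of the 24 type I-type (blue) and 11 gamma-type genes (orange) by day of glyoxylate in the 4 gates; filled points with 95% counting intervals are all gate cells, open squares are restricted cells (no immune marker UMI in the proximal tubule gate, under 2 Lrp2 and Slc34a1 UMIs in the others). Both sums were lowest at D0 among all proximal tubule cells, while the gamma-type sum was highest at D0 in the macrophage and Lyz2-high gates.

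A gene was counted as higher or lower when its CPM ratio to D0 was at least 1.5 or at most 1 over 1.5, among genes with at least 50 UMIs over the 4 libraries of the gate. In the proximal tubule gate 31 of the 35 genes passed that minimum, and Oas1a, Oas2, Ifi44 and Gbp5 did not. At D7, 22 of the 31 genes were higher, where 13.8% of all 13672 genes were, and 1 was lower, where 4.5% of all genes were. At D1, 14 of 31 were higher against 7.95% of all genes and none lower against 2.79%, and at D4, 12 of 31 were higher against 10.6% and none lower against 3.82%. By class, 17 of 21 measured type I-type genes and 5 of 10 measured gamma-type genes were higher at D7. The median log2 ratio at D7 was 1.02 for the type I-type genes, 0.54 for the gamma-type genes and 0.07 for all genes, and in cells with no immune marker UMI it was 0.53, 0.08 and 0.03. In the proximal tubule cells with no immune marker UMI, 11 of 26 measured genes were higher at D7 against 9.55% of all genes, 8 of 17 type I-type and 3 of 9 gamma-type, and 1 was lower against 4.1%.

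Among the antiviral effectors of the type I-type class, Rsad2 (viperin, an enzyme that makes a chain-terminating nucleotide) had the highest D7 ratio. It had 26, 42, 56 and 162 UMIs in the proximal tubule gate at D0, D1, D4 and D7, or 0.326, 0.654, 0.662 and 1.97 CPM, and its D7 ratio was 6.06 (3.99 to 9.55). A single D7 cell held 102 of the 162 UMIs, and without the highest cell of each library the ratio was 2.65. In cells with no immune marker UMI the Rsad2 ratio was 3.35 (1.595 to 7.69), from 10 D0 and 30 D7 UMIs. Ifit2, which binds viral RNA and acts in cell death, was spread over more cells: 142 D7 UMIs lay in 113 cells. Its levels were 0.338, 0.670, 0.532 and 1.73 CPM with a D7 ratio of 5.11 (3.37 to 8.03), and 5.84 in cells with no immune marker UMI. Unlike for Rsad2, then, most Ifit2 UMIs at D7 did not lie in 1 cell. Ifit1, which binds RNA lacking the host cap mark, was at 0.689, 1.07, 0.804 and 1.80 CPM, a D7 ratio of 2.61 (1.91 to 3.63), but 1.23 in the restricted cells. Ifit3, the partner of Ifit1, was at 1.80, 1.81, 1.63 and 3.66 CPM, a D7 ratio of 2.03 (1.66 to 2.496), and 14.9% of its 50-base words near the 3′ end also occur in Ifit3b. Isg15, a ubiquitin-like modifier, was at 0.313, 0.389, 0.378 and 0.889 CPM, a D7 ratio of 2.84 (1.78 to 4.67). The D1 and D4 levels of Ifit3 and Isg15 were near those at D0, and their D7 levels stood above them. In the restricted cells the D7 ratio was 1.95 for Ifit3 and 3.72 for Isg15.

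Membrane proteins that block virus entry or release made up much of the type I-type sum. Ifitm3, which restricts fusion in endosomes, was at 3.97, 10.5, 9.76 and 13.8 CPM, a D7 ratio of 3.46 (3.06 to 3.94), and at 2.48, 7.195, 3.05 and 4.87 CPM in cells with no immune marker UMI, a D7 ratio of 1.96. Bst2 (tetherin, which holds budding virus at the cell surface) was at 4.02, 5.98, 7.02 and 9.06 CPM, a D7 ratio of 2.25 (1.97 to 2.58), and its ratio in the restricted cells was 2.02. Ifi27l2a, a small mitochondrial protein gene, was at 3.43, 5.23, 7.62 and 6.21 CPM, a D7 ratio of 1.81 (1.56 to 2.10), and 1.20 in the restricted cells. The D7 ratios of Ifitm3 and Ifi27l2a were thus smaller in the restricted cells than in the whole gate, whereas that of Bst2 was nearly the same. Xaf1, an inducer of apoptosis, was at 1.59, 1.45, 4.12 and 4.37 CPM, higher at D4 and D7 but not at D1, and its D7 ratio of 2.75 (2.24 to 3.39) was 3.30 in the restricted cells.

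The regulators of the type I response were less different between days. Irf9, the DNA-binding subunit of the ISRE complex, was at 4.48, 6.45, 5.70 and 8.20 CPM, a D7 ratio of 1.83 (1.61 to 2.09). Its partner Stat2 was at 2.15, 2.79, 2.74 and 3.01 CPM, a ratio of 1.40 (1.14 to 1.71). Irf7, the amplifier of type I interferon production, was at 1.52, 2.02, 1.92 and 1.91 CPM, and its D7 interval of 0.989 to 1.61 includes 1. Usp18, which removes ISG15 and damps the receptor, was at 0.338, 0.670, 0.343 and 0.390 CPM, and its D7 interval of 0.669 to 2.00 includes 1. Of these 4 genes only Irf9 passed 1.5-fold at D7.

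The gamma-type genes of the proximal tubule gate did not move together. Cxcl10, the chemokine that draws CXCR3-bearing T cells, was at 3.96, 5.87, 10.5 and 14.0 CPM, a D7 ratio of 3.53 (3.11 to 4.01), and 3.504 in cells with no immune marker UMI. Its level was higher on each later day than on the one before, and proximal tubule cells with at least 5 Cxcl10 UMIs numbered 8, 16, 36 and 61. Irf1, a transcription factor induced by interferon gamma, peaked at D1, with 1.59, 5.95, 2.78 and 4.17 CPM, a D1 ratio of 3.74 and a D7 ratio of 2.62 (2.14 to 3.24). Cxcl9, the related chemokine that is more strictly dependent on interferon gamma, had only 8, 8, 44 and 13 UMIs, and 23 of the 44 at D4 lay in 1 cell.

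Among the interferon-inducible GTPases, which attack the vacuoles of intracellular microbes, the directions at D7 differed. Igtp was at 6.59, 8.99, 4.93 and 6.46 CPM, a D7 ratio of 0.981 (0.868 to 1.11), and Irgm1 at 15.6, 23.7, 12.1 and 17.2 CPM, a D7 ratio of 1.10 (1.02 to 1.19). Both were highest at D1 and below D0 at D4. Iigp1 was at 4.26, 4.92, 3.80 and 2.75 CPM, and its D7 ratio of 0.646 (0.544 to 0.767) made it the only measured gene counted as lower. Cells with at least 5 Iigp1 UMIs, 21 at D0 and 17 at D7, held 74.1% and 64.6% of these UMIs. In the other cells of the gate Iigp1 was at 1.105 CPM at D0 and 0.976 CPM at D7. Its D7 ratio in the restricted cells was 0.457 (0.344 to 0.602). Of the guanylate-binding proteins, Gbp2 was at 1.23, 1.31, 1.42 and 1.69 CPM, a D7 ratio of 1.38 (1.06 to 1.80) that was 0.942 in the restricted cells, and Gbp7 was at 4.97, 6.17, 4.46 and 7.63 CPM, a ratio of 1.54 (1.35 to 1.75). The restricted-cell Gbp7 ratio was 1.31 (1.10 to 1.56), under 1.5-fold. Gbp3 had 28, 32, 72 and 60 UMIs, a D7 ratio of 2.08 (1.31 to 3.39). In the restricted cells it was 1.86 with an interval of 0.944 to 3.80 that includes 1.

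**Figure D2:**
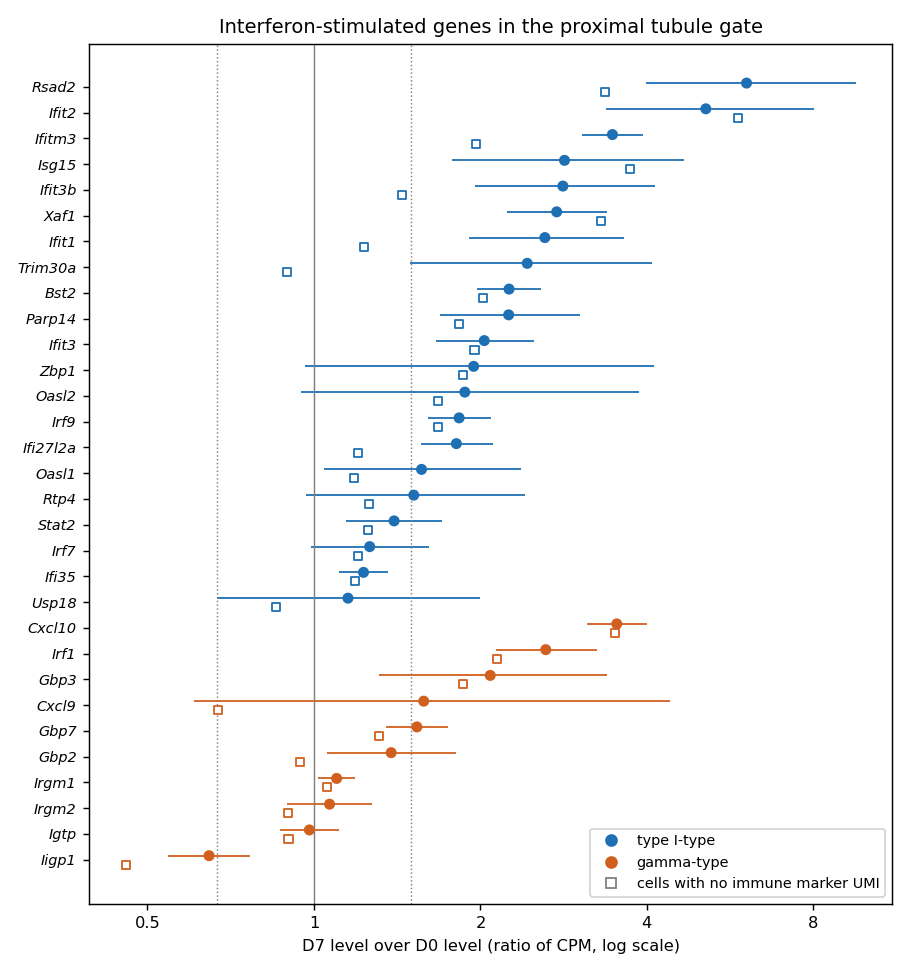
Ratio of D7 to D0 CPM in the proximal tubule gate for the 31 measured genes, on a log axis, with 95% counting intervals for all gate cells (circles) and the ratio in cells with no immune marker UMI (open squares); dotted lines mark 1.5-fold either way. Cxcl10, Ifit2, Xaf1 and Bst2 lie above 1.5-fold by both measures, and Iigp1 lies below 1.

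Most of the Iigp1 RNA of the proximal tubule gate, and a smaller part of its gamma-type RNA, sat in very few cells on every day, D0 included. Cells with at least 5 Iigp1 UMIs numbered 21, 16, 21 and 17, or 0.179%, 0.210%, 0.140% and 0.135% of the gate. They held 74.1%, 77.5%, 60.1% and 64.6% of its Iigp1 UMIs and 23.0%, 16.2%, 14.9% and 11.3% of its gamma-type UMIs. Iigp1 itself gave 252, 245, 193 and 146 of their 766, 644, 557 and 537 gamma-type UMIs. A single D0 cell held 235 of the 766. Just under that limit, with 3 or 4 Iigp1 UMIs, lay 11, 9, 15 and 9 further cells. The same cells were rich in other interferon-stimulated genes. Igtp was at 492, 432, 425 and 350 CPM in them, against 5.31, 7.58, 4.15 and 5.85 CPM in the other proximal tubule cells. Gbp2 was at 310, 197, 247 and 219 CPM against 0.414, 0.656, 0.960 and 1.31 CPM, and Cxcl10 was at 850, 254, 843 and 1283 CPM against 1.73, 5.05, 8.98 and 11.7 CPM. Not every gene of the set was detected there. Cxcl9 and Oas2 had no UMI in these cells on any day. Others had none on some days, among them Ifi27l2a at D0, D4 and D7, Zbp1 at D4 and D7 and Ifitm3 at D7. These cells held only 209313, 212897, 157824 and 145772 UMIs of all genes, so a count of 0 does not show a low level. Because the cells were picked by Iigp1, a gene of the set, these levels are a description.

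The Iigp1-high cells carried the tubule programme. Their 12 tubule markers summed to 10160, 11540, 7977 and 7052 CPM, against 10220, 10790, 8424 and 8227 CPM in the other proximal tubule cells. A UMI of the immune markers was present in 11 of 21, 9 of 16, 8 of 21 and 14 of 17 of them, against 2668 of 11730, 3145 of 7619, 3279 of 15019 and 4172 of 12608 of the other cells. Their median depth was 7883, 9941, 7185 and 8121 UMIs, against 5675, 6973, 5012 and 5682.5 UMIs. The immunoproteasome gene Psmb8 was at 411, 441, 196 and 377 CPM in them, against 4.06, 5.72, 5.64 and 6.99 CPM in the other cells. Ubd, which encodes the ubiquitin-like protein FAT10 and was looked at after its values were seen, was at 645, 108, 69.7 and 75.5 CPM against 0.452, 0.391, 1.15 and 1.18 CPM. At D0, 120 of the 171 Ubd UMIs of the gate lay in 1 cell. Proximal tubule cells with at least 10 type I-type UMIs, which numbered 27, 31, 59 and 77, had tubule markers at 7142, 5474, 6090 and 4546 CPM, and 19, 28, 54 and 68 of them held an immune marker UMI.

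**Figure D3:**
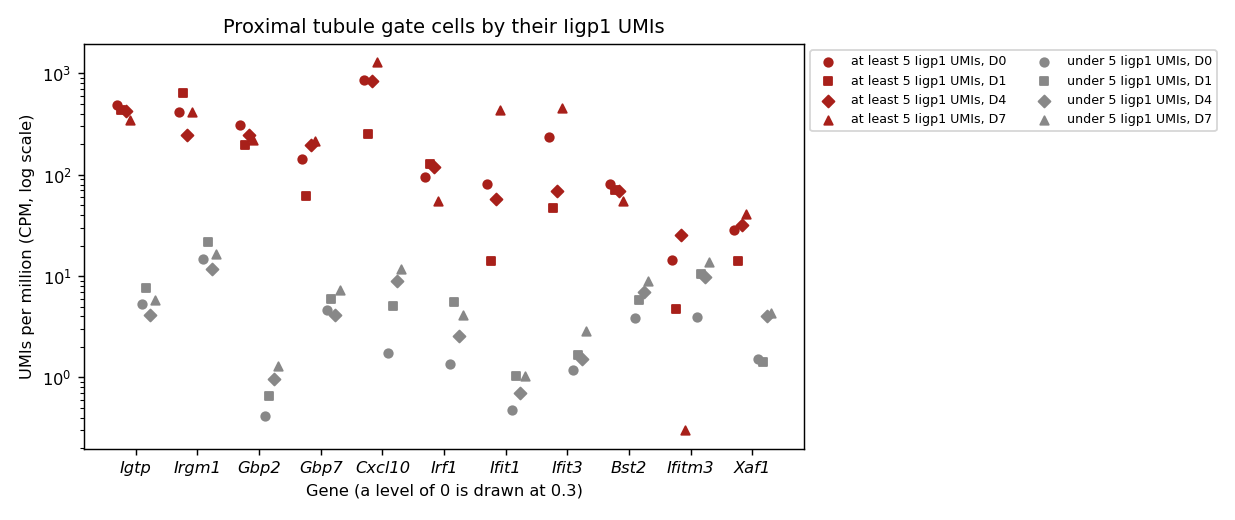
CPM on a log axis of 11 interferon-stimulated genes in proximal tubule gate cells with at least 5 Iigp1 UMIs (red; 21, 16, 21 and 17 cells at D0, D1, D4 and D7) and in the other cells of the gate (grey), 1 marker shape per day. Igtp, Gbp2 and Cxcl10 lie far higher in the red group on every day, and Ifitm3 does not.

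Havcr1 (KIM-1), the injury marker of the proximal tubule, was detected in 8, 108, 460 and 580 cells of the gate. These cells had 122, 133 and 130 CPM of the gamma-type genes at D1, D4 and D7, against 60.9, 40.7 and 53.5 CPM in cells without a Havcr1 UMI. Their type I-type sum was 86.5, 67.1 and 129 CPM, against 56.1, 55.4 and 70.4 CPM. Both sums were thus higher in Havcr1-positive cells on each of these days, but 103 of their 632 type I-type UMIs at D7 were of Rsad2, 102 of them in 1 cell. At D7 Cxcl10 was at 44.8 CPM with a Havcr1 UMI and 12.01 CPM without, whereas Ifitm3 was at 6.54 CPM with and 14.2 CPM without. At D0 all 235 gamma-type UMIs of the 8 Havcr1-positive cells came from 1 cell, so no level is read from that day. Median depth was 7656 UMIs in the Havcr1-positive cells at D7 and 5617 UMIs in the others, and deeper cells are more likely to show a Havcr1 UMI.

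Of the pathway around these genes, the proximal tubule gate held receptors and sensors but almost no interferon RNA. Of 20 interferon genes looked for in the gate, Ifng had 15, 22, 30 and 7 UMIs, Ifnk 2, 1, 0 and 1, and Ifnb1 and Ifnab 1 UMI each over the 4 libraries. The gamma receptor chain Ifngr1 was at 14.7, 18.1, 19.1 and 28.3 CPM, a D7 ratio of 1.92 (1.79 to 2.07), while the type I receptor chain Ifnar1 was at 9.88, 9.25, 11.01 and 11.4 CPM, a D7 ratio of 1.15 (1.05 to 1.27). Among 15 receptor and signalling genes, 3 were higher at D7, Socs3, Socs1 and Ifngr1, and none lower, where 13.8% of all genes were higher and 4.5% lower. Socs3, a feedback inhibitor of cytokine receptors that answers chiefly to IL-6-type cytokines, was at 0.877, 3.54, 3.46 and 8.11 CPM, a D7 ratio of 9.25 (7.22 to 12.01). Socs1, the inhibitor of interferon receptors, had 20, 30, 35 and 45 UMIs, a D7 ratio of 2.19 (1.26 to 3.91). Of 11 measured genes that sense foreign nucleic acid or relay it, 5 were higher and none lower against the same 13.8% and 4.5% of all genes, among them Tmem173 (STING), with 6, 28, 32 and 42 UMIs, and Mavs, the adaptor of the RNA sensors, at 12.1, 13.1, 17.8 and 21.0 CPM, a D7 ratio of 1.74 (1.61 to 1.89). Of other interferon-induced genes outside the set, 6 of 21 measured type I-type and 3 of 8 measured gamma-type genes were higher and none was lower, again against 13.8% and 4.5% of all genes; the abundant Samd9l was at 106, 103, 102 and 106 CPM.

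**Figure D4:**
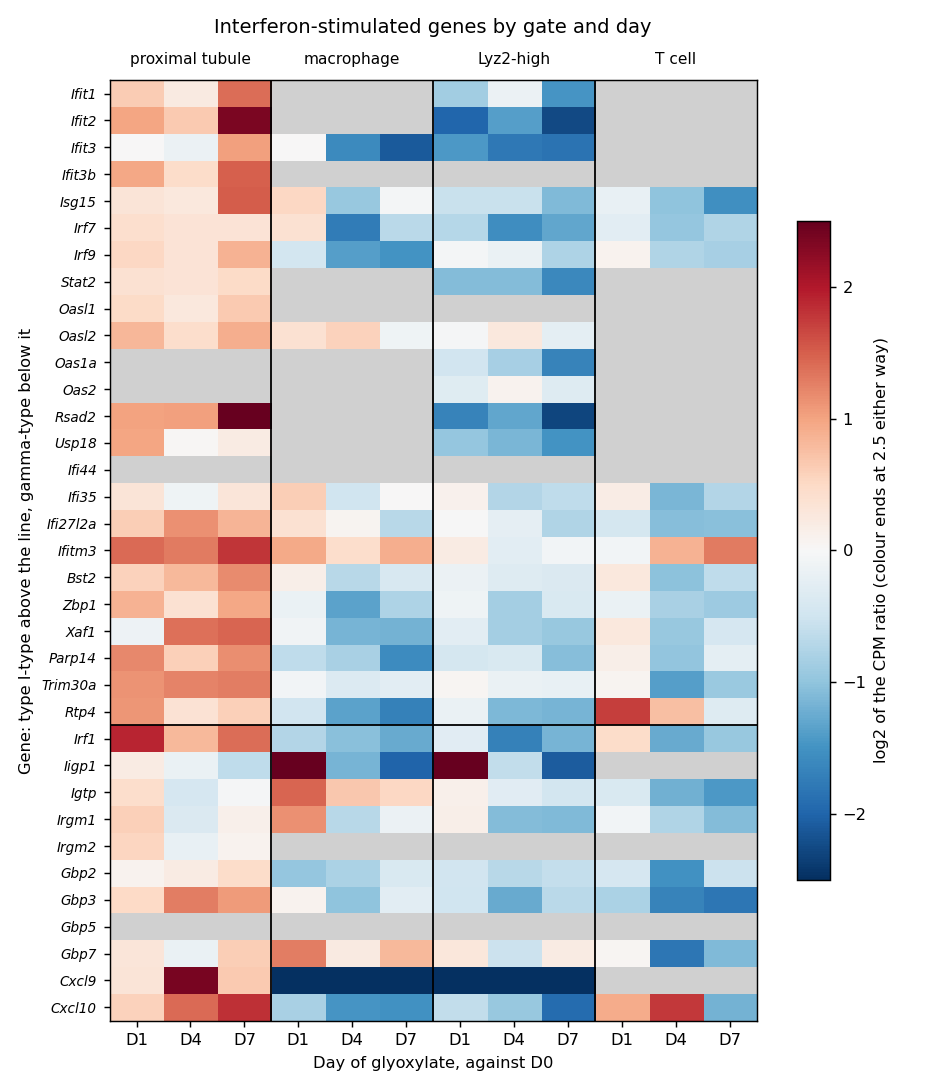
Log2 ratio of CPM to D0 at D1, D4 and D7 for the 35 genes in the 4 gates; red is higher than D0, blue is lower, grey has under 50 UMIs over the 4 libraries of the gate, and the line parts type I-type from gamma-type genes. The proximal tubule columns are mostly red and the D7 columns of the Lyz2-high and T cell gates mostly blue, with Ifitm3 red in the macrophage gate on each day and in the T cell gate at D4 and D7.

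In the macrophage gate the summed level of the gamma-type genes was lower after glyoxylate, and Cxcl9 alone gave 230 of its 421 UMIs at D0. The genes of the class did not move as 1: of 9 measured, 4 were lower and 1 higher at D7, 7 lower and 1 higher at D4, and 4 lower and 4 higher at D1. The percentages of all genes past the same limits in this gate were 14.7% lower and 15.1% higher at D7, 14.1% lower and 17.5% higher at D4, and 11.4% lower and 15.1% higher at D1. The gamma-type sum was 795, 441, 213 and 240 CPM, a D7 ratio of 0.302, and 1666, 602, 333 and 342 CPM in cells with under 2 tubule UMIs, a ratio of 0.205. The restricted D0 sum of 400 UMIs still held 172 Cxcl9 UMIs of 1 cell. Without the highest cell of each library the D7 ratio over all other gate cells was 0.498. In cells that passed only the macrophage gate, 35 at D7 and 85 at D0, it was 0.79. The share of cells with a gamma-type UMI after thinning to 2000 UMIs, which left out 62 D0 and 63 D1 cells, was 26.04%, 36.0%, 29.1% and 26.3% and so was not lower at D7; in proximal tubule cells treated alike it was 5.74%, 8.90%, 5.91% and 7.84%. The macrophage share was thus about level while the summed level was not. The type I-type sum was 2309, 3093, 2136 and 2196 CPM, a D7 ratio of 0.951, and 3661, 4419, 5829 and 3770 CPM in the restricted cells, a ratio of 1.03. In cells that passed only the macrophage gate the type I-type D7 ratio was 0.512. Of 23 measured genes of both classes 12 were lower at D7, where 14.7% of all 6264 genes were, and 2 were higher, where 15.1% were. In the restricted cells 10 of 17 measured genes were lower at D7 against 17.1% of all genes and 1 was higher against 24.0%. At D4, 16 of the 23 were lower against 14.1% of all genes and 1 was higher against 17.5%. At D1, 6 were higher against 15.1% and 5 lower against 11.4%.

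Cxcl9, which macrophages make in answer to interferon gamma, gave the largest difference of the macrophage gate. It had 230, 45, 18 and 46 UMIs, or 434, 51.3, 25.4 and 36.3 CPM, a D7 ratio of 0.0835 (0.0595 to 0.115). A single D0 cell held 172 of the 230 UMIs, and without the highest cell of each library the ratio was 0.187. The ratio was 0.0537 in the restricted cells, but there too 1 D0 cell held 172 of the 229 UMIs. Cxcl10 was at 183, 105, 66.2 and 63.9 CPM, a D7 ratio of 0.349 (0.256 to 0.473), and 0.238 in the restricted cells, so it stood in the opposite direction to Cxcl10 in the proximal tubule gate. Irf1 was at 58.5, 35.3, 28.2 and 24.4 CPM, a ratio of 0.418 (0.246 to 0.711) and 0.406 in the restricted cells, and Gbp2 was at 24.5, 12.5, 14.1 and 18.9 CPM, a D7 ratio of 0.771 with an interval of 0.377 to 1.65 that includes 1. The restricted Gbp2 ratio was 0.5295 (0.231 to 1.22). The D1 peak of Iigp1, with 5, 70, 2 and 3 UMIs, came from 1 cell that held 50 UMIs. Igtp had 7, 32, 15 and 24 UMIs, and its D7 interval of 0.599 to 3.94 includes 1.

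Ifitm3 went the other way in macrophages. It was at 644, 1235, 875 and 1215 CPM, a D7 ratio of 1.89 (1.68 to 2.13), and at 996, 1666, 2768 and 2261 CPM in the restricted cells, a ratio of 2.27. Its paralog Ifitm2 was at 310, 622, 451 and 724 CPM, a D7 ratio of 2.34 (1.98 to 2.78). Other type I-type genes were lower: Ifit3 had 18, 30, 8 and 10 UMIs, a ratio of 0.232 (0.0957 to 0.530), Ifi27l2a was at 678, 881, 714 and 417 CPM, a ratio of 0.615 (0.537 to 0.706), and Bst2 was at 294, 326, 182 and 223 CPM, a ratio of 0.758 (0.621 to 0.927). These ratios were 0.229 for Ifit3, 0.688 for Ifi27l2a and 0.581 for Bst2 in the restricted cells. Isg15 had 13, 31, 9 and 30 UMIs, with a D7 interval of 0.488 to 2.01. Over all cells of the macrophage gate, then, the type I-type sum was near its D0 level while the abundant Ifitm3 was higher and other genes were lower, and without Ifitm3, Bst2 and Ifi27l2a its D7 ratio was 0.492.

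The make-up of the macrophage gate differed between days. The 8 dendritic cell markers, led by the antigen-presentation genes Cd74 and H2-Ab1, which interferon gamma also induces, summed to 34790, 24880, 11940 and 12810 CPM, and the monocyte markers to 527, 1470, 929 and 1173 CPM. The neutrophil markers summed to 125, 44.4, 46.5 and 525 CPM. The 10 macrophage markers summed to 4824, 4644, 2867 and 4777 CPM. In the restricted cells the dendritic sum was 54270, 39140, 21210 and 16510 CPM. The monocyte markers there summed to 779, 1771, 3546 and 2185 CPM and the neutrophil markers to 16.7, 56.1, 202 and 1040 CPM. The macrophage markers there summed to 7218, 7267, 6465 and 6774 CPM. The part of dendritic cells, monocytes or neutrophils in the macrophage-gate values was not tested.

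**Figure D5:**
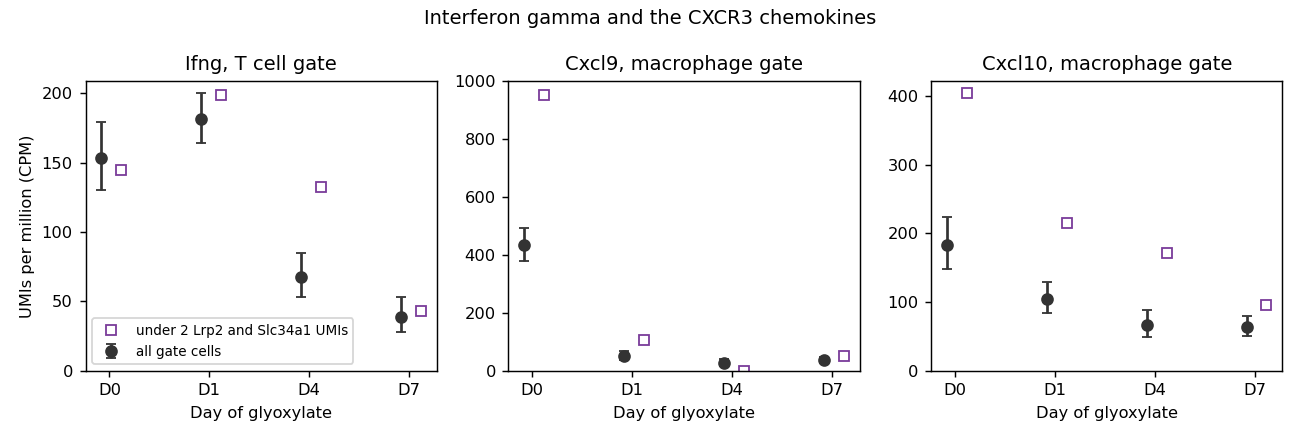
CPM of Ifng in the T cell gate and of Cxcl9 and Cxcl10 in the macrophage gate by day, for all gate cells (filled, with 95% counting intervals) and for cells with under 2 Lrp2 and Slc34a1 UMIs (open). Ifng was higher at D0 and D1 than at D7, and both chemokines were highest at D0.

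In the Lyz2-high gate, which holds monocytes, macrophages and neutrophils, no measured gene was past 1.5-fold higher at D7, where 13% of all genes were. Of 30 measured genes 22 were lower at D7, where 11.1% of all 8116 genes were. At D4, 18 of 30 were lower against 13.8% and none higher against 16.9%, and at D1 9 were lower against 9.46% and 1 higher against 12.6%. In cells with under 2 tubule UMIs, 15 of 26 measured genes were lower at D7 against 17.2% of all genes and none higher against 14.1%. The gamma-type sum was 633, 367, 216 and 210 CPM, a D7 ratio of 0.332, and 0.519 without the highest cell of each library, against 0.261 in the restricted cells. The restricted D0 sum of 356 UMIs still held 172 Cxcl9 UMIs of 1 cell. The D7 ratio was 0.527 in cells of only this gate, 0.556 without the highest doublet scores and 0.541 after thinning to 1000 UMIs. The type I-type sum was 5926, 6067, 4725 and 4601 CPM, a ratio of 0.776, and 7561, 7358, 7124 and 6472 CPM in the restricted cells, a ratio of 0.856.

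The abundant Ifitm3 was nearly level in the Lyz2-high gate and the smaller antiviral genes were lower. Ifitm3 was at 3132, 3586, 2608 and 3000 CPM, a D7 ratio of 0.958 (0.915 to 1.00) and 1.02 in the restricted cells. Rsad2 had 51, 46, 24 and 33 UMIs, or 65.9, 20.7, 26.8 and 13.4 CPM, a D7 ratio of 0.203 (0.127 to 0.321), and 0.464 in the restricted cells. Ifit3 was at 46.5, 17.1, 13.4 and 13 CPM, a ratio of 0.279 (0.168 to 0.463), and 0.496 with an interval of 0.219 to 1.17 in the restricted cells. Isg15 was at 73.7, 50.4, 50.3 and 34.1 CPM, a ratio of 0.463 (0.327 to 0.660). The restricted-cell Isg15 ratio, however, was 0.890 with an interval of 0.539 to 1.52 that includes 1. Irf7 was at 169, 104, 58.1 and 69.0 CPM, a ratio of 0.408 (0.323 to 0.516), and 0.792 in the restricted cells. Irf1 was at 82.7, 68.4, 25.7 and 37.0 CPM, a ratio of 0.447 (0.321 to 0.625), and 0.364 in the restricted cells. Cxcl10 was at 136, 88.1, 70.4 and 35.7 CPM, a ratio of 0.263 (0.196 to 0.353), and 0.259 in the restricted cells. Irf1 and Cxcl10 thus kept their ratios in the restricted cells, and Isg15 and Irf7 did not. The Lyz2-high and macrophage gates share cells, 54, 59, 45 and 118 of them, and both gates held a D0 cell with 172 Cxcl9 UMIs.

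Neutrophil markers summed to 3486, 6806, 530 and 673 CPM in the Lyz2-high gate and dendritic markers to 14500, 11720, 8182 and 7357 CPM, so the cells behind these levels differed between the first and the last days. The part of these cell types in the Lyz2-high values was not tested.

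The T cell gate held more interferon gamma RNA than the other gates compared. Ifng had 159, 397, 74 and 39 UMIs there, or 153, 182, 67.7 and 38.9 CPM, against 9, 1, 5 and 2 UMIs in the macrophage gate. Its D7 ratio was 0.253 (0.174 to 0.362), and 0.296 (0.123 to 0.614) in cells with under 2 tubule UMIs. In the whole gate Ifng was lower at D4 and D7 than at D0. In the restricted cells it was at 199 CPM at D1, a D1 ratio of 1.37 (1.06 to 1.79), and in the restricted cells the D4 level of 132 CPM, from 19 UMIs, was closer to the D0 level of 145 CPM, with a D4 interval of 0.521 to 1.52. NK markers, of cells that also make interferon gamma, summed to 1531, 2070, 1311 and 796 CPM in the gate. The 7 T cell markers measured, none used by the gate, summed to 1132, 1324, 481 and 549 CPM. In the restricted cells these T cell markers summed to 1674, 1711, 934 and 1070 CPM. The dendritic markers there summed to 223, 357, 2356 and 2463 CPM. The part of NK cells and of this make-up in the Ifng level, and in the gamma-type values below, was not tested.

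The gamma-type genes of the T cell gate had a lower sum at D4 and D7, as did its T cell markers. It was 252, 250, 125 and 114 CPM, a D7 ratio of 0.451, and 330, 331, 160 and 113 CPM in the restricted cells, a ratio of 0.342. Irf1 was at 46.3, 63.6, 19.2 and 23.9 CPM, a D7 ratio of 0.517 (0.303 to 0.860), Igtp at 56.9, 43.9, 24.7 and 20.9 CPM, a ratio of 0.368 (0.212 to 0.615), and Gbp2 at 28.9, 21.5, 10.1 and 19.9 CPM, a ratio of 0.689 with an interval of 0.371 to 1.25 that includes 1. The restricted-cell ratios were 0.302 for Irf1, 0.262 for Igtp and 0.612 for Gbp2. The thinned share of T-gate cells with a gamma-type UMI was 38.3%, 40.7%, 16.4% and 23.9%. Thinning left out 74 D0 and 60 D1 cells of the T cell gate as too shallow and none at D4 or D7, and the unthinned shares were 52.5%, 54.0%, 34.8% and 46.0%. The part of the tubule RNA given above in these shares was not tested.

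The type I-type genes of the T cell gate gave no steady direction. Their sum was 1300, 1121, 710 and 799 CPM, a D7 ratio of 0.614, but 1774, 1375, 1889 and 1764 CPM in cells with under 2 tubule UMIs, a ratio of 0.994. Ifitm3 alone gave 28, 108, 65 and 86 of the 929, 1828, 271 and 328 type I-type UMIs of these restricted cells. Its UMIs lay in 7 of 36 such cells at D4 and 9 of 42 at D7. Of 19 measured genes of both classes 14 were lower at D7 in the whole gate, where 17.1% of all 7634 genes were, and 1 was higher, where 20.0% were. At D4, 16 of 19 were lower against 20.6% and 3 higher against 20.1%, and at D1 1 of 19 was lower against 6.5% and 2 higher against 8.84%. In the restricted cells 7 of 16 measured genes were lower at D7 against 21.2% of all genes, 4 of the 5 gamma-type and 3 of the 11 type I-type genes, and 1 was higher against 17.4%. Ifi27l2a was at 819, 602, 389 and 396 CPM, a ratio of 0.483 (0.428 to 0.545), and 0.655 in the restricted cells. Bst2 was at 92.6, 111, 45.8 and 59.8 CPM, a ratio of 0.646 (0.460 to 0.901), but 1.22 in the restricted cells. Ifitm3 was at 56.9, 54.4, 104 and 141 CPM, a ratio of 2.47 (1.81 to 3.41), yet its 86 UMIs in restricted D7 cells came from 9 of 42 cells, and the macrophage markers of the restricted cells were at 656 CPM at D7 and 157 CPM at D0.

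The endothelial gate (at least 2 of Kdr, Pecam1, Emcn and Egfl7) held 17, 8, 1 and 4 cells, too few for a level. Its other endothelial markers were at 572 CPM at D7 and at 4420 CPM at D0, and all 4 D7 cells carried at least 2 tubule UMIs. The 17 D0 cells held 194 type I-type and 19 gamma-type UMIs, and no comparison between days was made for them.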

How the data were processed

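The authors deposited UMI counts per gene and barcode for 4 libraries. Cell Ranger 3.1.0 and the mm10 build are named per the submitters' processing notes, and the matrices carry software version 3.0.1 per the file headers. Neither a doublet step nor a vehicle group is given in the sources used here. Barcodes above 50% mitochondrial UMIs were left out, gates were set on marker UMIs, and counts were summed per gate and library to CPM. Intervals are exact (Poisson for levels, binomial for ratios and shares) and cover counting error only. A gene was counted as higher or lower at 1.5-fold among genes with at least 50 UMIs, with counts under 3 taken as 3. The counting was tested on simulated data. The genes, gates and lists were chosen with earlier results of these data known. The rule for genes given by value was 16 set by name plus, per gate, the 4 highest and 2 lowest D7 ratios and the 2 highest D1 ratios. Not all of these are given in every immune gate. Left out among the highest D7 ratios were Gbp7 and Ifi35 (macrophage), Gbp7, Trim30a and Oasl2 (Lyz2-high) and Parp14, Rtp4 and Xaf1 (T cell). Gbp3 and Isg15, the lowest of the T cell gate, were left out too. Stat2, Irf9, Xaf1, Irgm1, Gbp3, Gbp7, Psmb8, Ubd and Ifitm2, where outside that rule, were chosen after their values were seen. Alternatives were a 25% mitochondrial limit, a floor of 3000 UMIs, cells in only 1 gate, leaving out the highest Scrublet scores (scanpy 1.11.5), edgeR 4.0.16 TMM factors used for scaling only, thinning, other count minimums and 2-fold. Reads of near-identical copies could be split: 56.1% of 50-base words in the last 500 bases of Oas1a, 14.9% in Ifit3 and 14.0% in Ifitm3 also occur in other genes. Python 3.11.15, numpy 2.4.6, scipy 1.17.1, pandas 2.3.3 and matplotlib 3.10.9 were used. Some results are not reported here.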

Additional observations from a re-analysis of the deposited data

Results flagged for a closer look

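Several D7 to D0 ratios lay on opposite sides of 1 in different gates on all 3 later days, and none of these differences between gates was tested. The summed type I-type ratio was 0.614 in the T cell gate and 2.01 in the proximal tubule gate, but in T-gate cells with under 2 Lrp2 and Slc34a1 UMIs it was 0.994, and 1.065 at D4. Ifitm3 gave 86 of the 328 type I-type UMIs of those cells at D7, 65 of 271 at D4 and 28 of 929 at D0. The summed gamma-type ratio was 0.302 in the macrophage gate and 0.332 in the Lyz2-high gate, against 1.39 in the proximal tubule gate, and the macrophage value was 0.79 in cells of only that gate. The Rsad2 ratio was 0.203 in the Lyz2-high gate, or 0.464 in its cells with under 2 Lrp2 and Slc34a1 UMIs, and 6.06 in the proximal tubule gate, or 2.65 without the highest cell of each library. The Ifi27l2a ratio was 0.483 in the T cell gate and 1.81 in the proximal tubule gate. The Cxcl10 ratio was 0.349 in the macrophage gate and 0.263 in the Lyz2-high gate, against 3.53 in the proximal tubule gate.

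Signal also appeared in barcodes that no comparison used. In cells of no gate the type I-type sum was 281, 548, 474 and 446 CPM at D0, D1, D4 and D7, and the gamma-type sum was 55.5, 101, 77.5 and 99.7 CPM. In barcodes above 50% mitochondrial UMIs the type I-type sum was 22.9, 32.6, 52.1 and 53.1 CPM, and the gamma-type sum was 26.03 CPM at D7 and 15.3 CPM at D0.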

How the results depend on the processing

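The D7 type I-type ratio of the proximal tubule gate lay between 1.61 and 2.19 under every alternative tried, and the D7 gamma-type ratios of the macrophage, Lyz2-high and T cell gates stayed below 1. A limit of 25% mitochondrial UMIs moved no summed ratio beyond its counting interval. The type I-type ratio of the T cell gate at D4 changed direction, with 0.546 in the whole gate and 1.065 in cells with under 2 Lrp2 and Slc34a1 UMIs. Ifitm3 gave 65 of the 271 type I-type UMIs of those D4 cells. Other summed ratios also crossed 1 in at least 1 setting. For the type I-type genes these were D1, D4 and D7 in the macrophage gate and D1 in the Lyz2-high and T cell gates. For the gamma-type genes they were D4 in the proximal tubule gate and D1 in the T cell gate. The restrictions by tubule UMIs and by immune markers, and leaving out the highest cell, were chosen after seeing the data. No alternative was run in the endothelial gate, which held at most 17 cells. No paired analysis was possible because each day has 1 library. The cause of the differences between settings was not tested. With only cells of at least 3000 UMIs, the summed type I-type ratios were 1.62 at D4 and 2.19 at D7 in the proximal tubule gate, 1.73 at D1, 1.19 at D4 and 1.22 at D7 in the macrophage gate, 0.962 at D1, 0.728 at D4 and 0.687 at D7 in the Lyz2-high gate and 1.07 at D1, 0.666 at D4 and 0.734 at D7 in the T cell gate. Under the same setting the summed gamma-type ratios were 0.42 at D1 and 0.241 at D7 in the macrophage gate and 1.23 at D1, 0.679 at D4 and 0.63 at D7 in the T cell gate. With cells that passed only 1 gate, the summed type I-type ratios were 1.36 at D4 and 1.89 at D7 in the proximal tubule gate, 0.883 at D1, 0.402 at D4 and 0.512 at D7 in the macrophage gate, 0.877 at D1 and 0.728 at D4 in the Lyz2-high gate and 0.798 at D1 in the T cell gate. Under the same setting the summed gamma-type ratios were 0.482 at D4 and 0.79 at D7 in the macrophage gate and 0.775 at D1, 0.449 at D4 and 0.527 at D7 in the Lyz2-high gate. With the highest Scrublet doublet scores left out, the summed type I-type ratios were 1.06 at D1, 0.728 at D4 and 0.796 at D7 in the macrophage gate and 0.487 at D4 in the T cell gate. Under the same setting the summed gamma-type ratios were 0.337 at D4 and 0.414 at D7 in the macrophage gate and 0.945 at D1, 0.599 at D4 and 0.556 at D7 in the Lyz2-high gate. With edgeR TMM factors as the scaling, the summed type I-type ratios were 1.43 at D1 and 1.89 at D7 in the proximal tubule gate and 0.761 at D4 in the Lyz2-high gate. Under the same setting the summed gamma-type ratios were 1.38 at D1 and 1.31 at D7 in the proximal tubule gate. With cells thinned to 1000 UMIs, the summed type I-type ratios were 1.19 at D4 and 1.64 at D7 in the proximal tubule gate, 1.05 at D1, 0.625 at D4 and 0.825 at D7 in the macrophage gate, 0.845 at D4 and 0.91 at D7 in the Lyz2-high gate and 0.748 at D1 and 0.47 at D4 in the T cell gate. Under the same setting the summed gamma-type ratios were 1.66 at D1 in the proximal tubule gate, 0.715 at D1, 0.347 at D4 and 0.358 at D7 in the macrophage gate and 0.862 at D1, 0.495 at D4 and 0.541 at D7 in the Lyz2-high gate. Without cells with a Havcr1 UMI, the summed gamma-type ratio was 1.57 at D1 in the proximal tubule gate. Without Ifitm3, Bst2, Ifi27l2a and Irf1 in the sums, the summed type I-type ratios were 1.38 at D1, 1.24 at D4 and 1.77 at D7 in the proximal tubule gate, 0.939 at D1, 0.527 at D4 and 0.492 at D7 in the macrophage gate, 0.739 at D1, 0.603 at D4 and 0.504 at D7 in the Lyz2-high gate and 1.06 at D1 in the T cell gate. There the summed gamma-type ratio was 1.4 at D1 in the proximal tubule gate. With immune-gate cells of under 2 Lrp2 and Slc34a1 UMIs, the summed type I-type ratios were 1.21 at D1, 1.59 at D4 and 1.03 at D7 in the macrophage gate, 0.973 at D1, 0.942 at D4 and 0.856 at D7 in the Lyz2-high gate and 0.775 at D1, 1.06 at D4 and 0.994 at D7 in the T cell gate. There the summed gamma-type ratios were 0.361 at D1, 0.2001 at D4 and 0.205 at D7 in the macrophage gate, 0.465 at D1, 0.191 at D4 and 0.261 at D7 in the Lyz2-high gate and 0.342 at D7 in the T cell gate. The D0 sums of the macrophage and Lyz2-high gates in that setting still held a cell with 172 Cxcl9 UMIs. With proximal tubule cells that had no UMI of the immune markers, the summed type I-type ratios were 1.65 at D1, 1.31 at D4 and 1.61 at D7 in the proximal tubule gate. There the summed gamma-type ratios were 0.987 at D4 and 1.24 at D7 in the proximal tubule gate. Without the highest cell of each library, the summed gamma-type ratios were 1.12 at D4 and 1.46 at D7 in the proximal tubule gate, 0.801 at D1, 0.449 at D4 and 0.498 at D7 in the macrophage gate and 0.829 at D1, 0.501 at D4 and 0.519 at D7 in the Lyz2-high gate. With 2-fold in place of 1.5-fold, the counts of members past the limit were 6 higher at D1 in the proximal tubule gate, against 3.42% of all genes, 14 higher at D7 in the proximal tubule gate, against 8.17% of all genes, 0 lower at D7 in the proximal tubule gate, against 1.87% of all genes, 1 lower at D1 in the macrophage gate, against 3.38% of all genes, 0 higher at D4 in the macrophage gate, against 7.17% of all genes, 0 higher at D7 in the macrophage gate, against 6.43% of all genes, 5 lower at D1 in the Lyz2-high gate, against 2.48% of all genes, 11 lower at D4 in the Lyz2-high gate, against 4.35% of all genes, 1 higher at D1 in the T cell gate, against 2.42% of all genes, 0 lower at D1 in the T cell gate, against 1.39% of all genes, 1 higher at D4 in the T cell gate, against 8.16% of all genes, 10 lower at D4 in the T cell gate, against 8.65% of all genes, and 7 lower at D7 in the T cell gate, against 6.41% of all genes. With a minimum of 20 UMIs, the counts of members past the limit were 1 lower at D4 in the proximal tubule gate, against 5.16% of all genes, 8 lower at D1 in the macrophage gate, against 16.7% of all genes, 20 lower at D7 in the macrophage gate, against 18.6% of all genes, and 2 lower at D1 in the T cell gate, against 10.6% of all genes. With a minimum of 1 UMI, the counts of members past the limit were 1 lower at D4 in the proximal tubule gate, against 4.94% of all genes, 10 lower at D1 in the macrophage gate, against 41.9% of all genes, 24 lower at D7 in the macrophage gate, against 42.3% of all genes, 4 higher at D1 in the T cell gate, against 8.27% of all genes, and 7 lower at D1 in the T cell gate, against 35.2% of all genes. Low counts limit the immune gates: of the 35 genes, 23 had at least 50 UMIs in the macrophage gate and 19 in the T cell gate.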
